A study of Mus musculus with 28 samples.

Results

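Messenger RNAs of 10 genes whose proteins the choroid plexus releases into cerebrospinal fluid (CSF) were followed in 28 RNA-seq libraries, each made from lateral ventricle choroid plexus of 1 male mouse. The genes were a listed set: transthyretin (Ttr), autotaxin (Enpp2), clusterin (Clu), cystatin C (Cst3), insulin-like growth factor 2 (Igf2), its binding protein Igfbp2, prostaglandin D2 synthase (Ptgds), transferrin (Trf), klotho (Kl) and chitinase-like 1 (Chil1). Their symbols were matched to mouse Entrez identifiers, and all 10 of 10 were found among the 27179 identifiers of each of the 2 deposited count tables. The rule uses no measured value, but the genes were chosen with earlier results of these data known.

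There were 7 groups of 4 mice. The young mice were wild-type C57/BL6 males of 3 to 4 months: 4 were taken in the light phase, 6 h after lights-on (ZT6, called young day), 4 in the dark phase (ZT18, young night), and 4 at ZT6 after 6 h of sleep disruption (young sleep-disrupted day). The aged mice were males of 12 to 14 months, either J20+ or their J20- littermates (aged wild-type), with 4 per genotype at ZT6 (day) and 4 at ZT18 (night). The J20 transgene encodes human APP with the Swedish and Indiana familial Alzheimer's disease mutations, driven by the PDGF-B promoter, which is active mainly in neurons. The labels put the young mice in batch 1 and the aged mice in batch 2, so age and batch cannot be told apart, and the 12 young and 16 aged libraries were tested apart. All mice were anaesthetised and perfused before the tissue was dissected and frozen. The samples were whole tissue, in which fewer cells of a type and less RNA per cell cannot be told apart.

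The choroid plexus is a sheet of secretory epithelium over a vascular stroma, and it makes most of the CSF. Its epithelium is the main source of transthyretin in the brain, a carrier of thyroxine and, with retinol-binding protein, of retinol. The other proteins act in the fluid or on its lining: an enzyme that makes lysophosphatidic acid (autotaxin), a growth factor and one of its binding proteins, an iron carrier, an extracellular chaperone (clusterin), an inhibitor of cysteine proteases (cystatin C), an enzyme and lipid carrier (prostaglandin D2 synthase), and klotho, a co-receptor for FGF23 that is also shed into the CSF.

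The promoters of Igfbp2, Ptgds and Chil1 are shown because these genes had the lowest p-values among the 10 between young night and young day. The windows run from 250 bases before to 50 bases after a transcription start and are from RefSeq, build GRCm38.p6. Capitals mark a match to 1 of 3 motifs of clock-related factors, searched on both strands: the E-box CACGTG, the D-box TTATGNAA and the ROR element TAGGTCA. The Igfbp2 window lies at chr1:72824230-72824529 on the plus strand, the Ptgds window at chr2:25469700-25469999 on the minus strand, and the Chil1 window at chr1:134181906-134182205 on the plus strand.
Igfbp2: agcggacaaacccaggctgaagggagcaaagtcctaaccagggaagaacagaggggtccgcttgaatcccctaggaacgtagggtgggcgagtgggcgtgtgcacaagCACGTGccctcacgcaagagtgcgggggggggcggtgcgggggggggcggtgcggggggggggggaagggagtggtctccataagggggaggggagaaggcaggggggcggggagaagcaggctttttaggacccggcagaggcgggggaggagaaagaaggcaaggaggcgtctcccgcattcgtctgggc
Ptgds: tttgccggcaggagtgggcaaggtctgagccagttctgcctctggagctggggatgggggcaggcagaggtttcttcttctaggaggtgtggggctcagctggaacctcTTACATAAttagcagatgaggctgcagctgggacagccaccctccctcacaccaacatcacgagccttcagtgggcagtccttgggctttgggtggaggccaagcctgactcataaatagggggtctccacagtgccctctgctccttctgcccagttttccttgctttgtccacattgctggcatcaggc
Chil1: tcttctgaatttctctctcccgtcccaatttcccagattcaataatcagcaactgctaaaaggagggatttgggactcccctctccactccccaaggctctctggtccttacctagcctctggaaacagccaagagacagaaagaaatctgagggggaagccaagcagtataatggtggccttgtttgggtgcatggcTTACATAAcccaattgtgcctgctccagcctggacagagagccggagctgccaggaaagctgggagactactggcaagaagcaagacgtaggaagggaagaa
The E-box of Igfbp2 starts at position -142 from the start site, the D-box of Ptgds at -141 and that of Chil1 at -52. An E-box was present in 7.15% of 32851 mouse promoter windows of the same length, a D-box in 3.38% and a ROR element in 2.61%. Promoter windows were matched for 6 of the 10 genes (Cst3, Igf2, Igfbp2, Ptgds, Kl and Chil1), 10 windows in all. The fourth motif match was a ROR element of Cst3 at -114, and the 4 windows of Igf2, the second window of Igfbp2 and the window of Kl held none of these letters. A match is a string of letters and not a shown binding site.

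Library totals ran from 14632089 to 43885898 counts in the aged libraries and from 22466931 to 28982168 counts in the young ones. Choroid epithelium markers were abundant in every library: 15 markers, Folr1, Aqp1 and Kcnj13 among them, summed to between 9321 and 25060 CPM (the usual unit of expression in which each count is scaled to its library's total). The 30 markers of neurons, oligodendrocytes and astrocytes summed to between 245 and 737 CPM in the young libraries and between 340 and 9329 CPM in the aged ones, and none of the 30 was at 0 throughout a group. The J20 transgene was not counted apart: mouse App lay between 564 and 2192 CPM in J20+ and between 882 and 1955 CPM in aged wild-type libraries, so these counts give no check of the genotype labels. Of the aged libraries, 2 J20+ and 4 aged wild-type night libraries had the 6 lowest epithelium marker scores.

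The 10 mRNAs together made up 2.80% to 4.99% of all counts. Enpp2 had the highest mean CPM of all genes in both tables, Ttr ranked 4 in the young and 2 in the aged libraries, Kl 10 and 9, and Igf2 13 and 11. Chil1 was the least abundant, at rank 7919 and 6522. Per kilobase of exon, mean CPM of Enpp2 was 6311 and of Ttr 4482 in the young libraries, and in the aged libraries the order was the other way round, with 5115 for Enpp2 and 7590 for Ttr. Kl (746 and 632) and Igf2 (552 and 584) had similar per-kilobase levels in young and aged libraries. Clu (551 and 1580), Trf (381 and 692), Ptgds (247 and 1097), Cst3 (99.8 and 622) and Igfbp2 (94.1 and 843) had the larger value in the aged libraries, and so did Chil1 (6.69 and 17.01).

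Mean CPM over the aged libraries divided by that over the young ones was 8.96 for Igfbp2, 6.23 for Cst3, 4.45 for Ptgds, 2.87 for Clu, 2.54 for Chil1, 1.82 for Trf, 1.69 for Ttr, 1.06 for Igf2, 0.848 for Kl and 0.810 for Enpp2. These ratios set 2 batches side by side and were not tested. In the order of group means, all 4 aged groups lay above all 3 young groups for Ttr, Clu, Cst3, Igfbp2, Ptgds, Trf and Chil1. For Clu, Cst3, Igfbp2, Ptgds and Chil1 the lowest aged group and the highest young group did not overlap library by library (5 of 10), as in 32.1% of the 14713 genes tested in both tables. For Ttr and Trf those neighbouring groups overlapped. All other neighbours in the 10 orders overlapped as well. Kl and Enpp2 had their lowest group mean in aged wild-type night, and so did Igf2.

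**Figure D1:**
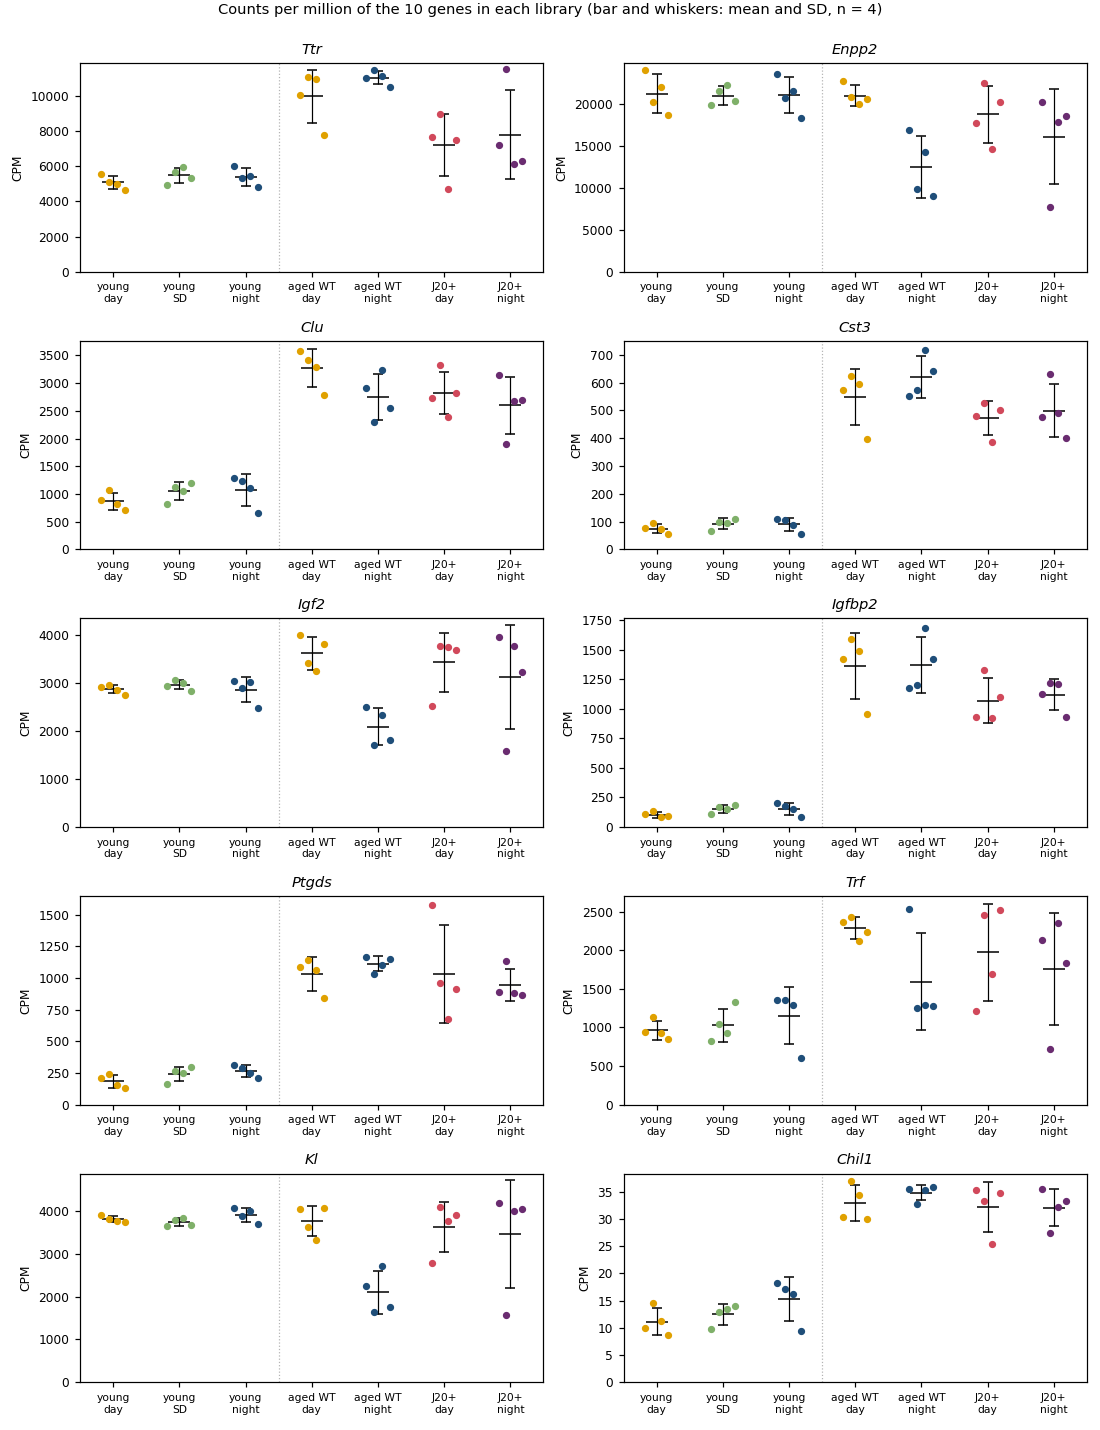
CPM (y axis, linear, from 0) of each of the 10 genes in every library, by group on the x axis; points are libraries, the bar and whiskers the mean and SD of 4, and the dotted line separates the 2 batches. Clu, Cst3, Igfbp2, Ptgds and Chil1 lie higher in all 4 aged groups, and aged wild-type night is low for Kl, Igf2 and Enpp2.

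Transthyretin differed between night and day in young mice by less than the error of the difference. Ttr was at 5539, 5119, 5014 and 4671 CPM in the 4 young day libraries, 4932, 5644, 5960.0 and 5357 in the young sleep-disrupted day libraries and 6032, 5308, 5420.3 and 4792 in the young night libraries. The 3 groups overlapped throughout. The log2 fold change of night over day was 0.04 ± 0.08 (SE), with a 95% interval from -8.67% to 15.6% (edgeR quasi-likelihood test, adjusted p = 0.884). The difference of sleep disruption from undisturbed day was 0.04 ± 0.08, with an interval from -8.37% to 15.97% (edgeR adjusted p = 0.882). Between young night and young sleep-disrupted day it was -0.0048 ± 0.08.

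In aged wild-type mice Ttr was at 10055, 11060.4, 10976 and 7780.2 CPM by day and 11025, 11465, 11151 and 10529 CPM by night, and in J20+ mice at 7663, 8942, 4728 and 7482 CPM by day and 7219, 11521, 6130.0 and 6292 CPM by night. Library 4 of aged wild-type day was the low one of its group, and library 2 of J20+ night was the high one of its group. Night minus day was -0.03 ± 0.20 in aged wild-type mice (edgeR adjusted p = 0.908) and 0.14 ± 0.20 in J20+ mice (adjusted p = 0.926). The difference between these differences was 0.17 ± 0.28 (edgeR adjusted p = 0.809).

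By day, Ttr in J20+ mice differed from aged wild-type mice by -0.49 ± 0.20 on the log2 scale, an edgeR fold change of 0.714, with an unadjusted p of 0.027 (edgeR quasi-likelihood test) and an adjusted p of 0.989. By night the value was -0.31 ± 0.20 (edgeR adjusted p = 0.271). The groups overlapped at both times. With limma-voom and library quality weights, both values were past the threshold. They were -0.62 by day (limma-voom adjusted p = 0.0285), where 14.7% of all genes were called, and -0.43 by night (limma-voom adjusted p = 0.0354), where 72.1% were. With the total count as a covariate they were -0.17 by day and 0.02 by night. J20+ libraries held 15536346 to 43885898 counts and aged wild-type libraries 14632089 to 20493087 counts.

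The count of Ttr moved little with the depth of the library. Over the 16 aged libraries it ran from 159440 to 207480, a ratio of 1.30, while total counts spanned a ratio of 3.00. The slope of log2 count on log2 total was 0.145 for Ttr, against a median of 0.815 over 15603 genes, and lay at the percentile 19.2 of these genes. The raw counts of J20+ day (165281 to 207480) and aged wild-type day (159440 to 179035) overlapped, while J20+ day library 3, with 43885898 counts in all, had the lowest Ttr level of the aged libraries, 4728 CPM. Over the aged libraries, log2 CPM of Ttr fell with log2 total count, with Pearson's r = -0.932 (permutation p = 1e-05, the smallest that 100000 permutations can give, adjusted p = 0.00016) and Spearman's rho = -0.812 (permutation p = 0.00027, adjusted p = 0.0024). Without the 2 libraries farthest from the median total, r was -0.856, and within groups it was -0.898. Over the 12 young libraries r was -0.823 (permutation p = 0.00164, adjusted p = 0.00656) and rho -0.867 (permutation p = 0.00061, adjusted p = 0.00305), with -0.749 without the 2 farthest and -0.878 within groups. In aged libraries Kl rose with depth (r = 0.590, permutation p = 0.0156, adjusted p = 0.0415; rho = 0.691, permutation p = 0.00361, adjusted p = 0.0152), and the relation did not pass without the 2 farthest libraries (r = 0.619, adjusted permutation p = 0.0686) or within groups (r = 0.617, adjusted permutation p = 0.146). Enpp2 had the other passing relation with depth in young libraries (r = -0.867, permutation p = 0.0005, adjusted p = 0.00245; rho = -0.888, permutation p = 0.00027, adjusted p = 0.0024; r = -0.917 without the 2 farthest). CPM has the total count as its divisor, so a count that moves little with depth gives a negative r by arithmetic. The permutation p-values of Ttr and Enpp2 are therefore not evidence apart from how their counts move with depth. How duplicate reads were handled is not given in the sources used here, and the part of depth in the Ttr difference between J20+ and aged wild-type mice was not tested beyond the covariate.

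**Figure D2:**
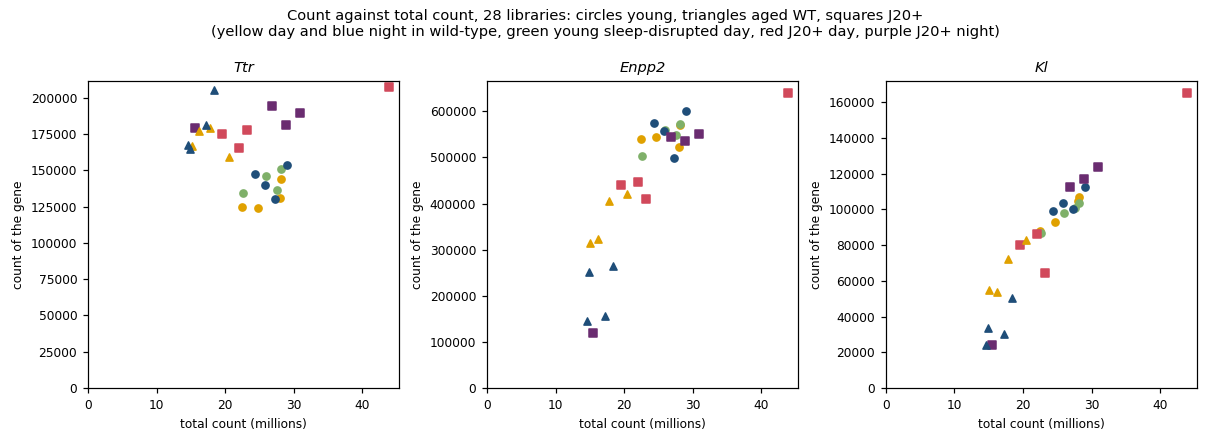
Count of Ttr, Enpp2 and Kl (y axes, linear) against the total count of the library (x axes), 1 point per library, 28 libraries; shapes and colours are given in the title. The Ttr count stays between 159440 and 207480 over aged libraries whose totals differ 3.00-fold, while the counts of Enpp2 and Kl spread 5.35-fold and 6.85-fold.

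Klotho, Igf2 and autotaxin mRNAs had lower means at night than by day in aged wild-type mice, and none of the 3 passed the test. Kl was at 4052, 3619, 3327 and 4056 CPM in aged wild-type day and 2250.1, 1647, 2722 and 1767 CPM in aged wild-type night libraries. Igf2 was at 3994, 3415, 3249.8 and 3811 CPM by day and 2499, 1716, 2333 and 1809 CPM by night. Enpp2 was at 22729, 20769.5, 19949 and 20536 CPM by day and 16874, 9884, 14299 and 9057 CPM by night. In all 3 genes every night library lay below every day library, as in 10.1% of all 16065 genes tested. In the other 6 pairs of groups none of the 10 genes was apart in either direction, where 1.01% to 7.90% of all genes were. The log2 fold changes of night over day were -1.03 ± 0.34 for Kl, -0.98 ± 0.32 for Igf2 and -0.93 ± 0.33 for Enpp2, edgeR fold changes of 0.489, 0.506 and 0.526. The adjusted p was 0.144 for each (edgeR quasi-likelihood test), and of all 16065 genes tested 2 passed (0.0124%). The ratios of the mean CPM, without TMM scaling, were 0.557 for Kl, 0.578 for Igf2 and 0.597 for Enpp2.

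Clu (-0.43 ± 0.22, edgeR adjusted p = 0.181) and Trf (-0.71 ± 0.40, adjusted p = 0.207) had lower means at night too. With the mean level of choroid epithelium markers (the epithelium score) as a covariate the values were 0.02 ± 0.16 (SE) for Clu and 0.30 ± 0.28 for Trf, and with the GC trend, a measure of the whole library, that of Trf was 0.03. Trf was at 2539, 1258, 1295 and 1283 CPM by night, with library 1 high, and 2359, 2434, 2116 and 2238 CPM by day. Igfbp2, Ptgds, Cst3 and Chil1 differed by less than 1 SE. The median of the 10 values was -0.30, against 0.03 over all genes tested, and 3 of the 10 had an unadjusted p under 0.05 (edgeR), a level that 31.1% of all genes reached.

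The outcome of this comparison depended on the method and on 1 library of another group. DESeq2 called Kl, Igf2 and Enpp2 lower at night (3 of 10, where it called 8.13% of all genes), and limma-voom with quality weights called those 3, Clu and Trf (5 of 10, where it called 51.7%). Without J20+ night library 2 edgeR called Kl, Igf2, Enpp2 and Clu (4 of 10, where it called 33.4%), with adjusted p of 0.0136 for Kl, 0.0139 for Igf2 and 0.0151 for Enpp2. That library is not part of the comparison. Without it 16310 genes were tested, and the value for Kl was -1.04 ± 0.22 (SE).

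The aged wild-type night libraries, lower in Kl, Igf2 and Enpp2, were also lower in markers of the choroid epithelium. Their mean level of neural tissue markers was higher, with overlap between night and day libraries. The neural score (mean log2 CPM of the 30 neuron, oligodendrocyte and astrocyte markers) in aged wild-type mice was 5.74 ± 1.24 (SD, n = 4) by night and 2.97 ± 1.62 (SD, n = 4) by day. The summed level of these markers ran from 1314 to 9329 CPM by night and from 343 to 3624 CPM by day. The choroid epithelium score (mean log2 CPM of 15 markers, none of them among the 10 genes) was 9.12 ± 0.28 (SD, n = 4) by night and 9.97 ± 0.29 (SD, n = 4) by day, with sums from 9446 to 12262 and from 14796 to 21402 CPM. With the epithelium score as a covariate the night-day difference was -0.10 ± 0.13 (SE) for Kl, -0.11 ± 0.13 for Igf2 and -0.16 ± 0.23 for Enpp2. With the neural score as a covariate it was -0.44 ± 0.32 for Kl, -0.47 ± 0.32 for Igf2 and -0.58 ± 0.38 for Enpp2. A lower share of epithelium in the sample and less of these mRNAs per epithelial cell cannot be told apart.

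Over the 16 aged libraries, log2 CPM of Kl rose with the epithelium score with r = 0.985 (permutation p = 1e-05, adjusted p = 0.00016) and rho = 0.935 (permutation p = 1e-05, adjusted p = 0.00032). It was 0.976 without the 2 libraries farthest from the median score and 0.974 within groups. Igf2 gave r = 0.978 (permutation p = 1e-05, adjusted p = 0.00016; rho = 0.912, permutation p = 2e-05, adjusted p = 0.00032; r = 0.963 without the 2 farthest) and Enpp2 r = 0.895 (permutation p = 3e-05, adjusted p = 0.0003; rho = 0.791, permutation p = 0.00047, adjusted p = 0.00251; r = 0.821 without the 2 farthest). Trf (r = 0.832), Clu (r = 0.791) and Chil1 (r = 0.656) passed as well, with adjusted permutation p of 0.000873, 0.00203 and 0.0201. Clu and Chil1 did not without the 2 farthest libraries, at r = 0.624 and 0.422 (adjusted permutation p of 0.0622 and 0.247). For Clu rho was 0.550 (adjusted permutation p = 0.0697), and for Chil1 the relation within groups did not pass (r = 0.736, adjusted permutation p = 0.137). The GC trend, a slope of a library's levels on transcript GC content that is defined with the young results, moved with the same genes: r was -0.947 for Kl, -0.937 for Igf2 and -0.890 for Enpp2 (adjusted permutation p = 0.00016, 0.00016 and 0.000356). For Trf, Clu and Chil1 r was -0.793, -0.733 and -0.645 (adjusted permutation p = 0.00253, 0.00648 and 0.0212). Without the 2 farthest libraries Trf, Clu and Chil1 did not pass (adjusted permutation p = 0.0742, 0.181 and 0.229). With the GC trend as a covariate the night-day difference was -0.30 ± 0.18 (SE) for Kl, -0.30 ± 0.17 for Igf2 and -0.29 ± 0.21 for Enpp2. Ttr (r = -0.423 with the epithelium score), Cst3 (-0.142), Igfbp2 (0.216) and Ptgds (-0.208) did not pass. In all, 80 relations were computed, of the 10 genes with 4 measures of the library in 2 sets of libraries, and p-values were adjusted over the 80. The share of all genes that would pass the same relations was not computed, so they do not set the 10 genes apart from others.

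**Figure D3:**
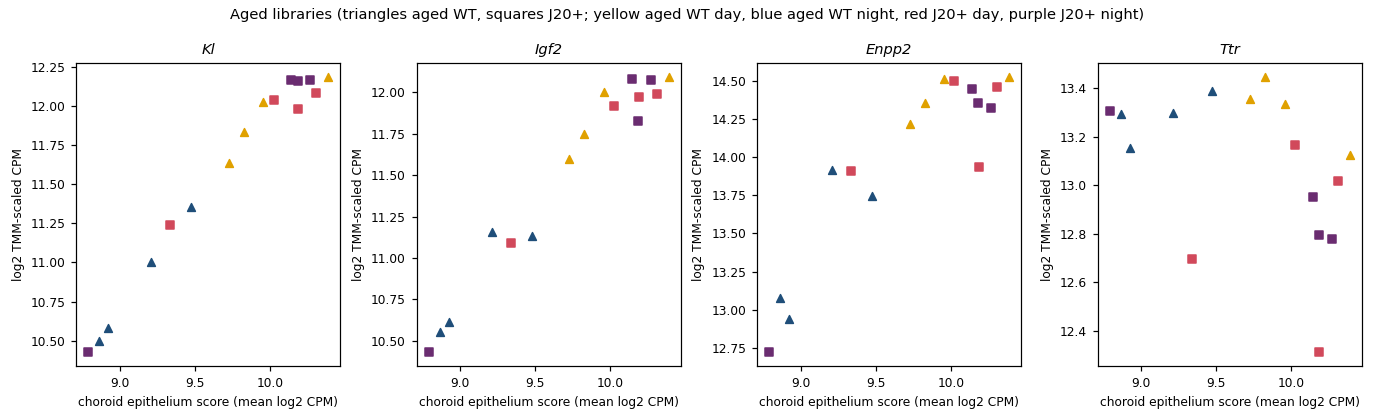
Log2 TMM-scaled CPM (library sizes scaled by the trimmed mean of M values) of Kl, Igf2, Enpp2 and Ttr (y axes) against the choroid epithelium score (x axes) in the 16 aged libraries; shapes and colours are given in the title. Kl, Igf2 and Enpp2 rise with the score (r = 0.985, 0.978 and 0.895), and Ttr does not (r = -0.423).

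In young mice the same 3 genes had narrow intervals around no change. Kl was at 3908, 3799, 3767 and 3739 CPM by day and 4062, 3886, 4006 and 3686 CPM by night. Night minus day was -0.01 ± 0.06 for Kl, with an interval from -9.50% to 9.71%. It was -0.05 ± 0.07 for Igf2, from -12.7% to 6.60%, and -0.06 ± 0.09 for Enpp2, from -15.8% to 9.68%. After sleep disruption Kl differed from undisturbed day by -0.09 ± 0.06 (adjusted p = 0.861, edgeR quasi-likelihood test), and Igf2 and Enpp2 by less than 1 SE. The epithelium score was 10.21 ± 0.06 (SD, n = 4) by day, 10.16 ± 0.03 (SD, n = 4) after sleep disruption and 10.09 ± 0.09 (SD, n = 4) by night.

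In J20+ mice no gene of the 10 passed between night and day. Kl was at 2780.3, 4085, 3759 and 3905 CPM by day and 4182, 1568, 4007 and 4054 CPM by night, with library 1 low by day and library 2 low by night. Igf2 was at 2510.3, 3776, 3742 and 3681 CPM by day and 3955, 1573, 3764 and 3224 CPM by night, low in the same libraries. Enpp2 was at 17695, 22476, 14584 and 20273 CPM by day and 20271, 7706, 17864 and 18540.4 CPM by night. Library 2 was the lowest for Enpp2 by night too, and library 3 by day. The libraries low in Kl and Igf2 had epithelium scores of 9.34 (J20+ day library 1) and 8.79 (J20+ night library 2), against 10.02 to 10.31 in the other 6 J20+ libraries. All 10 genes differed by less than 1 SE between J20+ night and day, and none had an unadjusted p under 0.05. By edgeR 0.0436% of all genes were called in this comparison, and 7.41% had an unadjusted p under 0.05.

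J20+ mice at night had higher mean Kl, Igf2 and Enpp2 than aged wild-type mice at night, and none of the 10 genes passed. The log2 differences were 0.98 ± 0.34 for Kl (adjusted p = 0.0944, edgeR quasi-likelihood test), 0.85 ± 0.32 for Igf2 (adjusted p = 0.104), 0.62 ± 0.33 for Enpp2 (adjusted p = 0.202) and 0.42 ± 0.40 for Trf (adjusted p = 0.459). The call rate over all genes was 0.00622%, and 31.9% had an unadjusted p under 0.05, as had 2 of the 10 (Kl and Igf2). The groups overlapped in all 10 genes, and for Kl J20+ night library 2 (1568 CPM) lay below all 4 aged wild-type night libraries. Without that library the values were 1.27 for Kl, 1.12 for Igf2 and 0.90 for Enpp2, all called by edgeR (3 of 10, adjusted p = 0.00173, 0.00217 and 0.0068), where 57.7% of all genes were called. DESeq2 called Kl and Igf2 (2 of 10, against 18.5% of all genes), and limma-voom with quality weights called 7 of 10, against 72.1%. With the epithelium score as a covariate the difference was 0.05 ± 0.12 (SE) for Kl, -0.01 ± 0.13 for Igf2, -0.16 ± 0.23 for Enpp2 and -0.64 ± 0.28 for Trf. This comparison and that of night with day in aged wild-type mice share the 4 aged wild-type night libraries.

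By day, J20+ and aged wild-type mice differed in no called gene of the 10, and 0% of all genes were called (1.87% had an unadjusted p under 0.05, and of the 10 only Ttr, above). Besides Ttr, values of at least 1 SE were -0.35 ± 0.20 for Igfbp2, -0.23 ± 0.22 for Clu and -0.22 ± 0.16 for Cst3 (adjusted p = 0.989 for each, edgeR quasi-likelihood test). All 10 values were negative, with a median of -0.20 against 0.03 over all genes, while without J20+ day library 1 there were 3 positive values and the median was -0.12. The share of all genes with a negative value was not computed. The 10 values are not separate observations, as several of the genes moved together over the aged libraries. Pearson's r was 0.987 for Igf2 and Kl and 0.903 for Enpp2 and Trf, though -0.367 for Kl and Ttr. Night-day differences were compared between the genotypes in 1 model. The value was 1.05 ± 0.47 for Kl (edgeR unadjusted p = 0.044, adjusted p = 0.391), 0.93 ± 0.45 for Igf2 (adjusted p = 0.407), 0.81 ± 0.47 for Enpp2, 0.63 ± 0.56 for Trf and 0.40 ± 0.31 for Clu. Of all genes 0% were called and 12.4% had an unadjusted p under 0.05, as had 1 of the 10. Without J20+ night library 2, Kl (1.33), Igf2 (1.20) and Enpp2 (1.08) were called at an adjusted p of 0.0422 each (edgeR), where 20.9% of all genes were. Without J20+ day library 1 as well, none of the 10 and 0% of all genes were called, at 1.16 for Kl, 1.02 for Igf2 and 0.98 for Enpp2 (edgeR adjusted p = 0.0708, 0.0708 and 0.0764), and 4 of the 10 had an unadjusted p under 0.05, as had 35.1% of all genes. With the epithelium score as a covariate the values were 0.13 ± 0.16 (SE) for Kl, 0.09 ± 0.17 for Igf2 and 0.01 ± 0.29 for Enpp2.

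**Figure D4:**
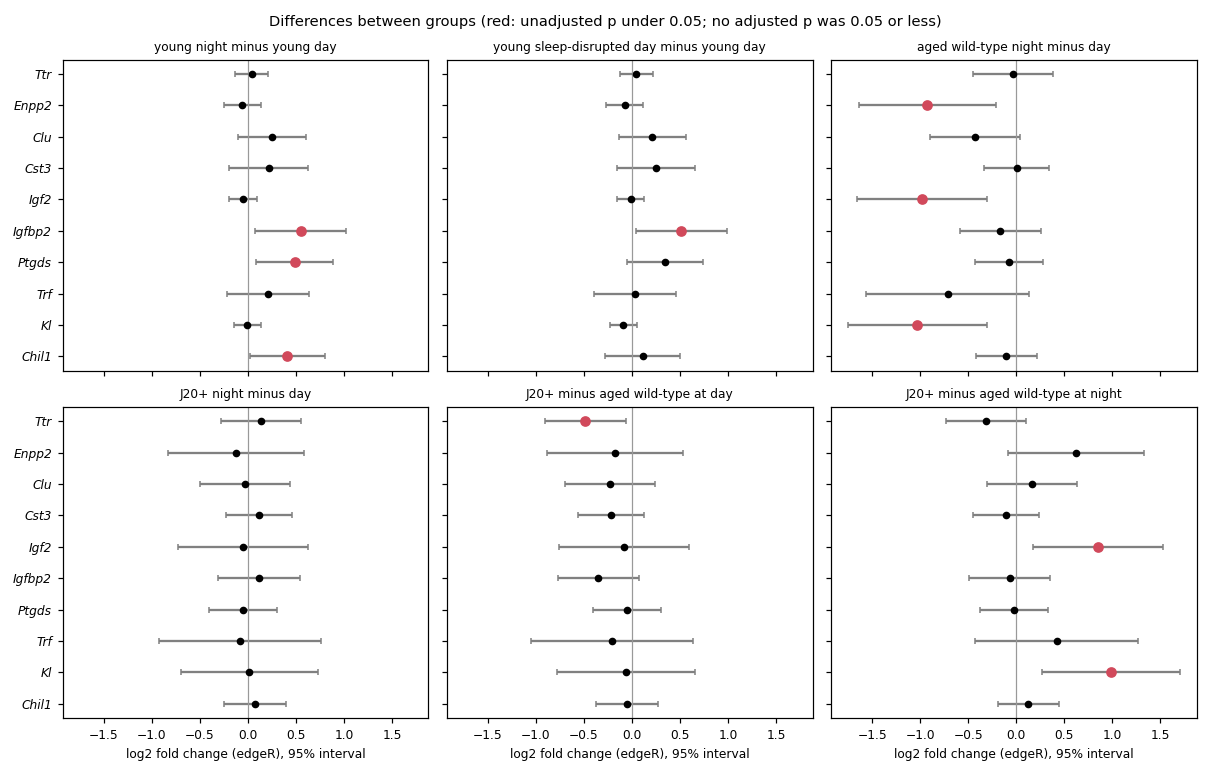
Log2 fold change (x axes) with its 95% interval for each of the 10 genes (y axes) in 6 comparisons by edgeR; red points have an unadjusted p under 0.05. In young mice the intervals of Ttr, Enpp2, Igf2 and Kl are narrow and cover 0, and the aged comparisons have wider intervals.

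Igfbp2, Ptgds and Chil1 had higher means at night than by day in young mice, and none passed. Igfbp2 was at 107, 134, 81.7 and 89.4 CPM by day, 108, 169.6, 149 and 186 CPM after sleep disruption and 206, 181, 151 and 87.0 CPM by night. Ptgds was at 211, 243, 156 and 130.3 CPM by day, 162, 267, 249 and 296 CPM after sleep disruption and 312, 291, 249 and 211 CPM by night. Chil1, a secreted chitin-binding protein without chitinase activity, was at 9.93, 14.57, 11.3 and 8.73 CPM by day, 9.71, 12.95, 13.4 and 13.9 CPM after sleep disruption and 18.3, 17.1, 16.2 and 9.40 CPM by night. In each gene library 4 of young night was the lowest of its group and the groups overlapped.

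Night minus day was 0.55 ± 0.22 for Igfbp2 (unadjusted p = 0.027, adjusted p = 0.466), 0.49 ± 0.18 for Ptgds (0.020, adjusted p = 0.444) and 0.41 ± 0.18 for Chil1 (0.042, adjusted p = 0.505), by edgeR's quasi-likelihood test. These 3 of 10 had an unadjusted p under 0.05, which 9.39% of all 14983 genes had, and 0.267% of all genes were called. Clu (0.25 ± 0.16), Cst3 (0.22 ± 0.19) and Trf (0.21 ± 0.20) had positive values with wide intervals, reaching 52.0%, 54.1% and 55.2%. With limma-voom and quality weights, Igfbp2, Ptgds, Chil1, Clu and Trf were called higher at night (5 of 10), where 18.7% of all genes were called. Without young night library 4, edgeR gave 0.73 for Igfbp2 and 0.56 for Chil1, with adjusted p of 0.0712 and 0.08. It gave 0.40 for Clu, 0.36 for Cst3 and 0.40 for Trf (adjusted p = 0.0989, 0.151 and 0.0998), and 6 of the 10 then had an unadjusted p under 0.05, as had 28.2% of all genes.

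After sleep disruption Igfbp2 differed from undisturbed day by 0.51 ± 0.22 (unadjusted p = 0.037, adjusted p = 0.861, edgeR quasi-likelihood test), close in size to its night-day value. Ptgds differed by 0.34 ± 0.18, Cst3 by 0.25 ± 0.19 and Clu by 0.21 ± 0.16, all with an adjusted p of 0.861. Here 0% of all genes were called and 2.40% had an unadjusted p under 0.05, against 1 of the 10. Between young night and young sleep-disrupted day none of the 10 had an unadjusted p under 0.05 (9.70% of all genes did, and 0.380% were called). The largest value of the 10 was 0.30 ± 0.18 for Chil1, and Kl gave 0.08 ± 0.06. The comparisons with young day share its 4 libraries.

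Over the young libraries the levels of Cst3, Clu, Igfbp2, Trf, Chil1 and Ptgds correlated positively in each pair, with r from 0.546 (Ptgds and Trf) to 0.972 (Clu and Cst3), and all 6 moved with a measure of the whole library. That measure, the GC trend, is the slope of a gene's deviation from its mean log2 CPM on the GC content of its longest transcript (per 10 percentage points, over 11412 genes). Cst3 rose with it with r = 0.962 (permutation p = 3e-05, adjusted p = 0.0003; rho = 0.923, permutation p = 5e-05, adjusted p = 0.000571) and r = 0.916 without the 2 farthest libraries. Clu gave r = 0.962 (permutation p = 2e-05, adjusted p = 0.000267), Igfbp2 0.867 (permutation p = 0.00041, adjusted p = 0.00234), Trf 0.862 (permutation p = 0.00018, adjusted p = 0.0012), Chil1 0.853 (permutation p = 0.00048, adjusted p = 0.00245) and Ptgds 0.773 (permutation p = 0.00364, adjusted p = 0.0139). Their rho values were 0.937, 0.874, 0.881, 0.881 and 0.839, and without the 2 farthest libraries r was 0.924, 0.853, 0.843, 0.814 and 0.905. Ttr (r = 0.142), Enpp2 (-0.097) and Igf2 (-0.178) did not follow the trend, and Kl (-0.633, adjusted permutation p = 0.0627) did not pass. The trend was lowest in young night library 4 (-0.44) and young day library 4 (-0.38) and highest in young sleep-disrupted day library 4 (0.30). With the GC trend as a covariate, night minus day was 0.31 ± 0.12 (SE) for Igfbp2, 0.36 ± 0.13 for Ptgds and 0.22 ± 0.08 for Chil1 (adjusted p = 0.175, 0.14 and 0.129, edgeR). The GC content of the transcript was 62.1% for Igfbp2, 57.2% for Cst3, 56.4% for Ptgds, 55.6% for Clu, 52.5% for Trf and 52.0% for Chil1, and 46.5% for Ttr, 44.9% for Enpp2 and 48.1% for Kl. Igf2, at 55.8%, was the GC-rich gene that did not follow it. The trend is made from the levels of many genes set against their GC content, so GC-rich genes tend to follow it by construction. Over the aged libraries the signs differed: r with the trend was negative for Trf (-0.793), Clu (-0.733) and Chil1 (-0.645). Cst3 (0.346), Ptgds (0.121) and Igfbp2 (0.003) did not pass there. The share of all genes that follow it was not computed. The part of RNA quality or library preparation in the trend was not tested.

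**Figure D5:**
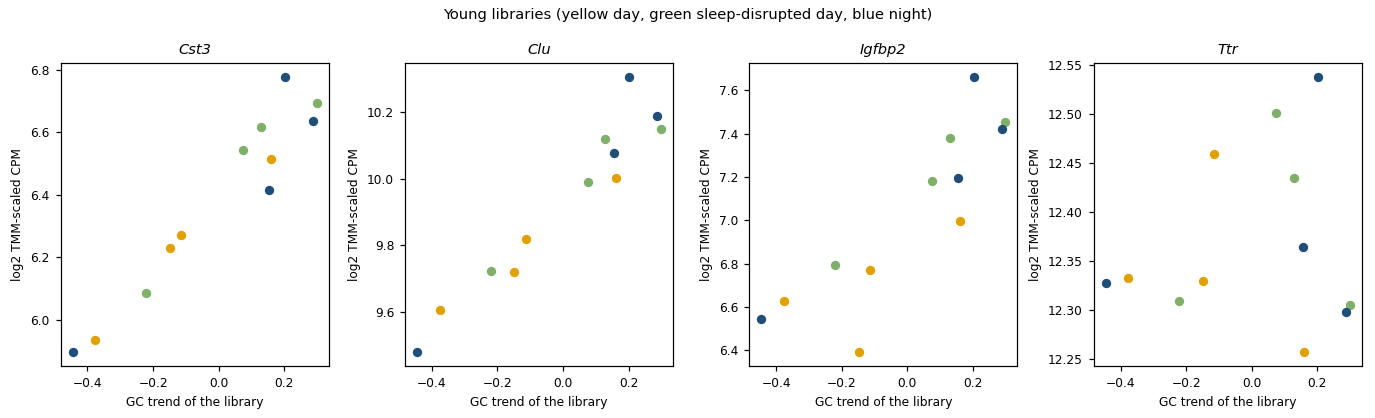
Log2 TMM-scaled CPM of Cst3, Clu, Igfbp2 and Ttr (y axes) against the GC trend of the library (x axes) in the 12 young libraries; colours are given in the title. Cst3, Clu and Igfbp2 rise with the trend (r = 0.962, 0.962 and 0.867), and Ttr does not (r = 0.142).

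Trf in young night library 4 was at 605 CPM, against 1294 to 1356 CPM in the other 3 young night libraries. The same library held the highest summed level of 12 macrophage markers among young libraries, 245 CPM, against 62.3 to 126 in the other 11. Its summed oligodendrocyte, astrocyte and fibroblast markers were the highest too (227, 373 and 1064 CPM). Its neuron, endothelium, mural and erythroid markers were not. Its summed epithelium and ependyma markers were the lowest of the young libraries, at 22126 and 139 CPM. In young mice Trf fell as the neural score rose (r = -0.728, permutation p = 0.00677, adjusted p = 0.0212; rho = -0.727, permutation p = 0.00971, adjusted p = 0.0311; r = -0.796 without the 2 farthest), and the relation did not pass within groups (r = -0.740, adjusted permutation p = 0.114). Trf was not alone: Clu (r = -0.704) and Cst3 (r = -0.685) passed too (adjusted permutation p = 0.032 and 0.0392). Without the 2 farthest libraries Clu and Cst3 did not pass (adjusted permutation p = 0.181 and 0.204). Within groups Clu passed (0.0444) and Cst3 did not (0.0663). Trf is made by oligodendrocytes as well as by the choroid plexus, and the 10 oligodendrocyte markers summed to 6466, 3974, 768 and 2564 CPM in aged wild-type night libraries 1 to 4, where Trf was at 2539, 1258, 1295 and 1283 CPM. Library 1 was the highest in both, and library 2, the next in markers, was the lowest in Trf. Over the 16 aged libraries Trf did not pass with the neural score by Pearson's r (-0.573, permutation p = 0.0196, adjusted p = 0.0505) and fell with it by rank (rho = -0.662, permutation p = 0.00639, adjusted p = 0.0243; r = -0.692 without the 2 farthest). The part of that tissue in the value was not tested.

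Of the genes that act with the 10, 10 lists were tested, from hormone carriers and receptors to proteases, and 1 of 135 list entries tested in the young libraries (0.741%) was called between night and day, against 0.267% of all genes. It was Rdh10, an enzyme of retinoic acid synthesis on the list of 19 tested thyroid hormone and retinoid genes, which was lower at night (-0.58 ± 0.10, adjusted p = 0.0322, edgeR quasi-likelihood test). No entry was called in any of the other 7 comparisons (of 135 tested in each other young and 146 in each aged comparison). In the iron list, whose members handle iron that Trf carries, 14 of 16 genes were tested and none passed. The genes with the smallest p there were the transferrin receptor Tfrc (-0.72 ± 0.25, edgeR adjusted p = 0.391) and the ferritin chain Ftl1 (0.64 ± 0.22, adjusted p = 0.402). In the list of 10 clusterin receptors and lipid carriers the smallest p was for Lrp2 (megalin), an endocytic receptor that binds clusterin (-1.52 ± 0.47, edgeR adjusted p = 0.307). In the lysophosphatidic acid list it was for the receptor Lpar2 (-0.44 ± 0.13, edgeR adjusted p = 0.282), and in the IGF list for Igf2bp2 (-0.36 ± 0.17, edgeR adjusted p = 0.541). In the list of 40 other secreted proteins, 36 were tested and the smallest p was for Apod (0.72 ± 0.27, edgeR adjusted p = 0.454). List medians in this comparison lay between -0.11 and 0.19, against 0.02 over all genes, and 8.15% of entries had an unadjusted p under 0.05, against 9.39% of all genes.

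In aged wild-type mice 34.2% of the 146 entries had an unadjusted p under 0.05 between night and day, near the 31.1% of all genes. The IGF list, 16 of 18 tested, was led by Igf2r, the receptor that clears Igf2 (-1.42 ± 0.40, adjusted p = 0.144, edgeR quasi-likelihood test). The klotho list, 7 of 14 tested, was led by Fgfr3 (0.79 ± 0.19), the clusterin list by Lrp1 (-0.66 ± 0.19), the cathepsins, proteases that cystatin C inhibits, by Ctsk (-0.61 ± 0.17) and the iron list by Steap2 (-1.12 ± 0.36), each with an adjusted p of 0.144. List medians ran from -0.56 in the iron list, -0.51 in the cathepsins and -0.46 in the klotho list to 0.19 in the thyroid hormone and retinoid list and 0.32 in the chitinase-like list, against 0.03 over all genes. In the same comparison the median was -0.88 over the 15 choroid epithelium markers and 3.16 over the 11 neuron markers, and their part in the list values was not tested. Between J20+ and aged wild-type mice at night, 36.3% of entries had an unadjusted p under 0.05, near the 31.9% of all genes. Igf2r (1.503 ± 0.40) and the adenosine receptor Adora2a (-3.06 ± 0.75) had the smallest p of the IGF and prostaglandin lists there (edgeR adjusted p = 0.0917 each).

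Genes whose levels were most like those of the 10 were sought by Pearson's r of log2 CPM, as a description over libraries that share depth and tissue makeup. Over the 16 aged libraries and 12407 genes, Ttr was most like Cox4i1 (r = 0.859), COX1 (0.853), Cd63 (0.85), ND1 (0.84) and CYTB (0.833), of which Cox4i1, COX1, ND1 and CYTB encode parts of the mitochondrial respiratory chain. Kl was most like Stim2 (0.991), Ocln (0.99) and Letm1 (0.99), Igf2 like Cds1 (0.992), Dele1 (0.989) and Man1a (0.988), and Enpp2 like Psap (0.978). Cst3 was most like Cd63 (0.927), with Gpx8 (0.899) and Igfbp2 (0.897) next. Over the 12 young libraries and 11308 genes, Ttr was most like Tprg (0.854) and Sh2d4a (0.827), Clu like Psap (0.992) and Kl like Dnajc1 (0.974). Between Kl and Igf2, r was 0.987 over the aged libraries.

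Igf2 lies at chr7:142650768-142666816 (GRCm38.p6), and its antisense gene Igf2os and the microRNA gene Mir483 overlap it. The count of Igf2os was 0.242% to 1.54% of that of Igf2, and since the strand setting of the counting is not given in the sources used here, reads of the pair may not be told apart. The noncoding gene Gm16090 overlaps Ttr in the annotation and was not among the counted genes. No count of it could therefore be set against that of Ttr, and whether reads of Gm16090 were counted as Ttr was not tested. Ins2, the neighbouring insulin gene, was at 2.39 to 52.0 CPM.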

How the data were processed

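RNA of 28 choroid plexus samples was sequenced as poly(A)-selected, stranded libraries, per the labels' protocols. The authors deposited whole-number, unnormalized gene counts, keyed by Entrez identifier, as a young and an aged table. Among the tools in the submitters' processing notes are featureCounts 2.0.1, HISAT2 2.2.1 and Picard 2.18.2, beside cutadapt, DESeq2 and FastQC 0.11.8, with mm10 as genome build. How strand, multimapping reads and duplicates were treated, and which annotation was used, is not stated in these sources. Every column of the tables was used.

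Identifiers were named from RefSeq GRCm38.p6 (25275 of 27179, 93.0%), exon lengths and GC content came from GENCODE vM21, and 259 of 260 genes written in the lists matched. The 10 genes, the lists and the markers were chosen with earlier results of these data known. CPM was computed from the counts and library totals without TMM scaling, so a ratio of mean CPM and an edgeR fold change can differ in sign. Differences were tested with edgeR 4.0.16 (quasi-likelihood, robust, filterByExpr, TMM; R 4.3.3), fitted apart on the 12 young and 16 aged libraries, with Benjamini-Hochberg adjustment over all genes tested and a threshold of 0.05. All adjusted p-values of group differences are from edgeR unless DESeq2 1.42.0 or limma 3.58.1 is named. "Unadjusted" marks a p without that correction. All tests were two-sided. Relations over libraries used 100000 permutations (numpy 2.4.6, scipy 1.17.1). Replicates were separate mice. The fits were tested on simulated data.

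All 10 genes were described in each comparison. From each list up to 4 called genes with the smallest p were named, or up to 2 where none was called, and the text gives a selection of these. Alternatives were other scalings, no filter, DESeq2, limma-voom, only the groups compared, marker scores as covariates and leaving out libraries. The total count and the GC trend as covariates were added after the data were seen. Intervals are 95% and rest on the spread between libraries that edgeR estimated. The genes most like Igfbp2 and Ptgds over the young libraries are not reported here.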

Additional observations from a re-analysis of the deposited data

Results flagged for a closer look

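In 5 of 70 sets of 4 libraries, 1 library lay farther from the others than Dixon's 95% limit for 4 samples allows, and chance gives about 5%. Igf2 in J20+ day library 1 was at 2510 CPM, below 3681 to 3776 CPM in the other 3. Kl in J20+ night library 2 was at 1568 CPM, below 4007 to 4182 CPM, and Ptgds in the same library was at 1131 CPM, above 866 to 886 CPM. Trf was at 605 CPM in young night library 4, below 1294 to 1356 CPM, and at 2539 CPM in aged wild-type night library 1, above 1258 to 1295 CPM.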

How the results depend on the processing

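edgeR called none of the 10 genes in any of the 8 comparisons, and 15 alternatives gave another count. The share of all genes called follows each count. limma-voom called 5 genes between young night and day (18.7%), 2 between young night and sleep-disrupted day (7.38%), 5 between aged wild-type night and day (51.7%), 1 between J20+ and aged wild-type by day (14.7%), 7 by night (72.1%) and 5 for the difference of night-day differences (33.5%). The GC trend covariate gave 1 between young night and sleep-disrupted day (7.07%). Between aged wild-type night and day DESeq2 gave 3 (8.13%) and the fit on only the groups compared 3 (26.2%), and between J20+ and aged wild-type by night DESeq2 gave 2 (18.5%). Without J20+ day library 1 and J20+ night library 2 these comparisons gave 5 (44.4%) and 5 (62.9%), and the difference of differences 0 (0%). With single libraries left out they gave 0 to 4 and 0 to 3, and the difference of differences 0 to 3, in each case with the highest count without J20+ night library 2 (33.4%, 57.7% and 20.9%). The cause was not tested. Of 40 relations with marker scores 14 passed, and 9 did without the 2 farthest libraries. The share of all genes that would pass was not computed.

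Of 2000 log2 fold changes under alternatives, 160 had the other sign. With the epithelium score as a covariate, young night minus day became 0.1055 for Enpp2, 0.04083 for Igf2 and 0.04777 for Kl, young night minus sleep-disrupted day 0.05865 for Ttr, aged wild-type night minus day 0.01561 for Clu and 0.3025 for Trf, J20+ minus aged wild-type by night -0.1577 for Enpp2, -0.01485 for Igf2 and -0.6353 for Trf, and the difference of differences -0.02792 for Clu and -0.353 for Trf. With the GC trend these were -0.0368 for Trf and 0.02299 for Kl between young night and day, 0.0341 for Trf between aged wild-type night and day, -0.09861 for Enpp2 and -0.445 for Trf between J20+ and aged wild-type by night, and -0.07798 for Trf for the difference of differences. With the neural score Trf between J20+ and aged wild-type by night was -0.1734. With the total count Kl was 0.003143 between young night and day, and Ttr 0.01404 between young night and sleep-disrupted day and 0.0229 between J20+ and aged wild-type by night. Kl was 9.861e-05 between young night and day with scaling without the 10 genes. Ttr between J20+ night and day was -0.03324 without J20+ day library 1 and J20+ night library 2. With single libraries left out, young night minus day ran from -0.01231 to 0.07761 for Ttr, -0.111 to 0.002227 for Enpp2 and -0.03835 to 0.02247 for Kl, Ttr ran from -0.06535 to 0.03336 between young night and sleep-disrupted day and from -0.1534 to 0.006485 between aged wild-type night and day. The cause of these changes was not tested. The fit on only the groups compared was not run for the difference of differences, which uses all 4 aged groups. No paired analysis was possible because the replicate numbers follow record order and name separate mice. Intervals of Ttr, Kl, Igf2 and Enpp2 were wider in the aged than in the young comparisons. Where an interval covers 0, a difference of either sign within it was not excluded.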
